A study of Danio rerio with 8 samples.

Results

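The TNF superfamily ligands and receptors were described in whole-body zebrafish larvae that had been exposed to zinc oxide nanoparticles (ZnO NPs) or zinc sulfate (ZnSO4). The members were the array probes whose RefSeq accession belonged to a gene with a symbol starting with tnfsf or tnfrsf, or to tnfa, tnfb, eda, edar, eda2r, cd40, cd40lg, fas, faslg, ngfra, ngfrb or relt. The rule found 35 probes among the 43603 non-control probes of the array. They stood for 23 of the 13293 genes named on it, 13 encoding ligands (19 probes) and 10 encoding receptors (16 probes). The rule took in 34 genes of the RefSeq gene table, which holds no gene under the symbol eda2r. Of these, fas, ngfra, ngfrb, tnfrsf11a, tnfrsf11b, tnfrsf13b, tnfrsf14, tnfrsf17, tnfrsf9b, tnfsf11 and tnfsf14 had no matched probe and were not analysed here.

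Larvae were taken at 96 h. The ZnO NP group had received 2.64 mg/L of the particles (3 arrays), the ZnSO4 group 7.75 mg/L of the salt (3 arrays), and the control group no treatment (2 arrays). No strain or genotype was given for any group. Both concentrations were the nominal LC25 of their compound, so the groups were matched on nominal lethality and not on the mass of the compound. The paper reported similar measured zinc concentrations at these LC25 values. Each array carried Cy3-labelled RNA of 1 sample, which the methods describe as larvae of 1 dish extracted together, and p-values measure the spread between such samples.

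Ligands of the tumor necrosis factor (TNF) superfamily are mostly membrane-bound trimers, and some are released. They cluster receptors that either carry a death domain or bind TRAF proteins, which activate NF-kB and JNK. Death domains recruit adaptors such as FADD, which brings in caspase-8. The family is known for inflammation, lymphocyte survival and cell death, and its ectodysplasin branch for the growth of scales, teeth and fins in fish. Zebrafish carry 2 TNF genes, tnfa and tnfb, and several genes related to TRAIL, the apoptosis-inducing ligand tnfsf10.

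All arrays shared 1 slide, in 2 sets of 4 positions, called sides here. Side 1 held ZnO NP replicates 1 and 2 and both controls, and side 2 held ZnO NP replicate 3 and the 3 ZnSO4 arrays, so that no side held both ZnSO4 and control. Values for that pair with the side as a block rest on the ZnO NP arrays, which lay on both sides. Between 77.5% and 85.8% of all probes were well above background on an array. Control replicate 1 had the lowest share, and its mean negative control signal of 40.5 was outside the range set by the scanner software, against 30.2 to 37.0 on the other arrays. All 35 probes of the listed muscle, liver, lens, blood, pancreas, skin and nerve markers were above background on all 8 arrays. The zinc-inducible genes mt2 and slc30a1a, both listed as exposure markers, had 4 probes, with log2 fold changes between 0.58 and 0.90 in ZnO NPs and between 0.63 and 1.03 in ZnSO4 against control. None of these 4 passed an adjusted p of 0.05.

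A probe counted as above background on an array where at least 0.5 of its spots carried the scanner software's mark for a signal well above background. Signals below are processed signals scaled to the same 75th percentile on every array, in arbitrary units, and they are compared within a probe only. Of the member probes, 19 were above background on all 8 arrays, and 7 were above it on none. Those 7 were the single probes of the ligands eda (ectodysplasin), tnfa, tnfsf13 (APRIL) and tnfsf18 (the GITR ligand) and of the receptors cd40 and tnfrsf18 (GITR), and 1 of the 3 probes of the TNF receptor tnfrsf1b. The remaining 9 probes were above background on 1 to 7 arrays. No member spot was saturated or marked as an outlier.

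**Figure D1:**
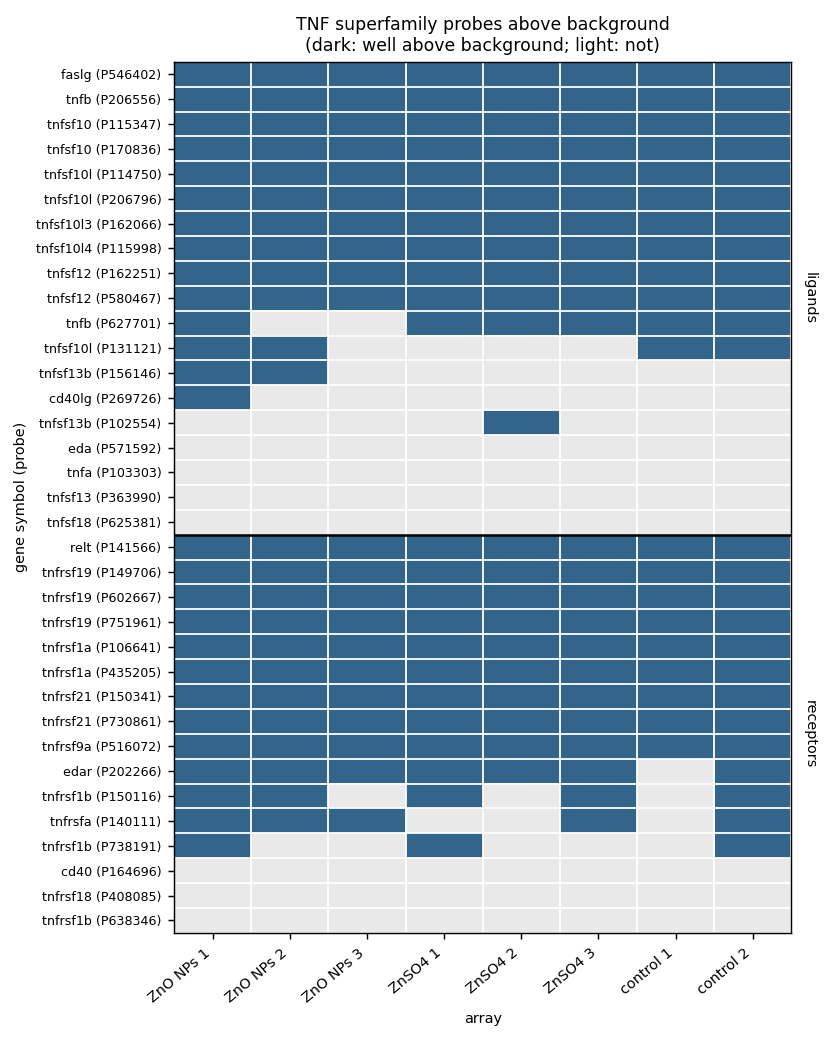
Background marks of the 35 member probes (rows, by gene symbol and the last part of the probe name, ligands over receptors) on the 8 arrays (columns), dark where the probe was well above background. The upper rows of both blocks are dark on all 8 arrays (19 probes), 7 rows are light throughout, and 9 rows are mixed.

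A probe was tested where 1 group or more had it above background throughout, which left 23 of the 35 member probes (12 of ligands, 11 of receptors) for 14 genes, within 34610 probes tested in all. The tests were limma fits of log2 scaled signals with Benjamini-Hochberg adjustment over all of these probes, and a call needed a fold change of at least 1.5 and an adjusted p under 0.05. A probe that entered only through the group in which it was bright had to look different from the others, and that holds for tnfrsfa (through ZnO NPs). The tnfsf10l probe A_15_P131121 entered through control alone, which was not its brightest group. The edar probe entered through both exposed groups and missed the mark on an array of control, where it was dimmest. On ZnSO4 replicates 1 and 3 only 1 of its 2 spots was above background, while both were on each ZnO NP array. The tnfb probe A_15_P627701 entered through ZnSO4 and control and missed it in ZnO NPs, where it was dimmest. The filter therefore favoured the difference of edar from control and that of this tnfb probe in ZnO NPs.

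No member probe was called by limma in ZnO NPs against control, where 0.0433% of all probes tested were called. With the same fold and an unadjusted p under 0.05, 2 of the 23 member probes passed (8.7%), beside 3.07% of all probes. These were edar upwards (2.11% of all probes passed upwards) and tnfb downwards (0.956%), both on probes whose difference the filter favoured. Among the 19 members above background on all 8 arrays 0 passed, beside 2.32% of such probes. At an unadjusted p under 0.05 and any fold, 10 of 23 passed (43.5%), 6 upwards and 4 downwards, beside 25.1% of all probes (15.2% upwards and 9.89% downwards). Among the 19 members that were above background on all 8 arrays, 7 passed that rule (36.8%), beside 25.2% of 32774 such probes. The median log2 fold change of the 23 members was -0.04, beside 0.03 over all probes tested, and 10 of 23 were above 0 (43.5%), beside 55.1%. Receptor probes had a median of 0.01 and 4 of 11 passed the unadjusted p (36.4%), all 4 upwards. These were edar and tnfrsfa, whose differences the filter favoured, and both probes of 1 gene, tnfrsf21. Ligand probes had a median of -0.09, with 2 of 12 passing upwards (16.7%) and 4 downwards (33.3%).

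In ZnSO4 against control no member was called by limma either, beside 0.026% of all probes. None passed the fold with the unadjusted p, beside 2.4% of all probes. At any fold 1 of 23 had an unadjusted p under 0.05 (4.35%, a tnfb probe, downwards), beside 18.3% of all probes (8.97% downwards). The members' median log2 fold change was -0.05, beside 0.02 over all probes, and 7 of 23 were above 0 (30.4%), beside 54.1%. The comparisons with control share their 2 control arrays, so the values of ZnO NPs and ZnSO4 are given side by side and not as separate support for each other.

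**Figure D2:**
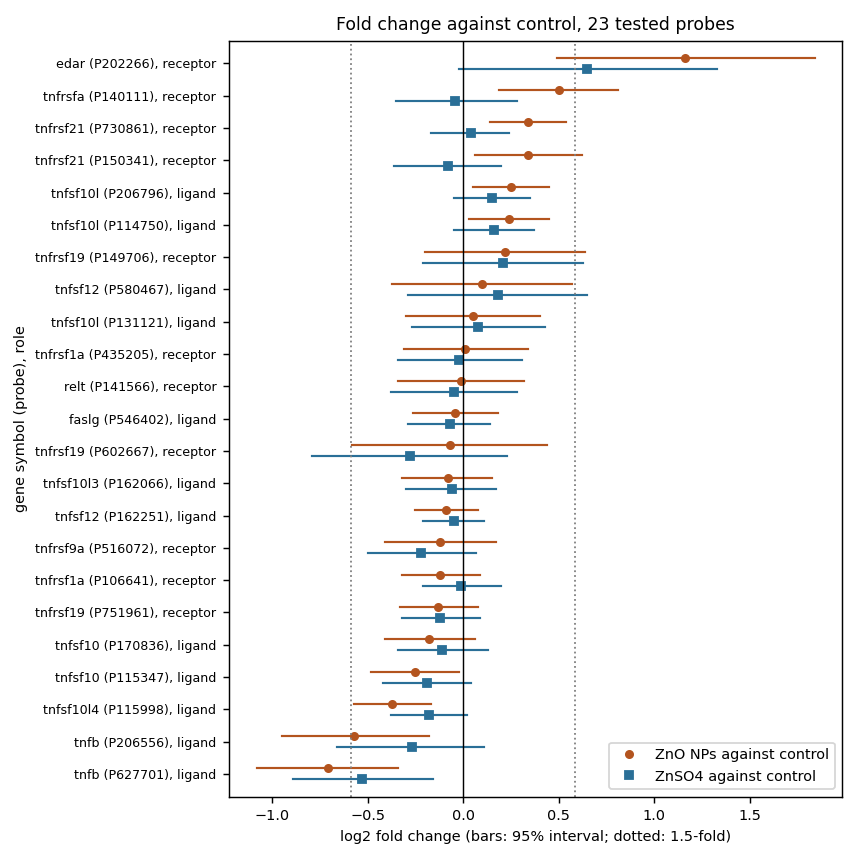
Log2 fold change against control (points) with its 95% interval (bars) for the 23 tested member probes, ZnO NPs as circles over ZnSO4 as squares, ordered by the ZnO NP value, with dotted lines at a fold of 1.5. The order runs from edar at 1.16 to a tnfb probe at -0.71 in ZnO NPs, and beside these 2 points only edar in ZnSO4, at 0.65, lies outside the dotted lines.

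Member probes were described in full partly because their groups did not overlap. A lack of overlap in the probes below therefore adds no support, and no share of all probes stands beside it. Among the receptors, edar had the largest log2 fold change. It encodes the ectodysplasin A receptor, which acts in the epithelium of developing scales, fins and teeth. Its probe A_15_P202266 gave scaled signals of 34.1, 36.4 and 43.0 in ZnO NPs, 29.8, 28.7 and 21.5 in ZnSO4, and 11.8 and 23.9 in control. All 3 ZnO NP arrays were brighter than every ZnSO4 and control array, and control replicate 1, the dimmest, was the 1 array on which the probe was not above background. Means were 37.8 ± 4.63 in ZnO NPs and 26.7 ± 4.5 in ZnSO4 (SD, n = 3 each), and 17.8 ± 8.52 in control (SD, n = 2).

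The log2 fold change of edar was 1.16 in ZnO NPs against control (SE 0.29, 95% interval 0.49 to 1.84, unadjusted p = 0.0043, adjusted p = 0.109). In ZnSO4 against control it was 0.65 (interval -0.02 to 1.33, adjusted p = 0.28), with overlapping groups. Without control replicate 1 these values were 0.66 in ZnO NPs and 0.15 in ZnSO4. Without control replicate 2, which left 1 control array, they were 1.67 and 1.16, so the size rests on which control array is used. With a background correction by normexp and quantile normalization they were 0.22 in ZnO NPs (adjusted p = 0.124) and 0.01 in ZnSO4, and with quantile normalization alone 0.94 and 0.49. The normexp setting added an offset of 50 to every signal, more than the signals of edar, tnfrsfa and the dimmer tnfb probe. An added offset makes fold changes of dim probes smaller, but its part in these values was not tested. Within side 1, which leaves out ZnO NP replicate 3, the ZnO NP value was 1.07 (adjusted p = 0.393), and with the side as a block the ZnSO4 value was 0.37 (adjusted p = 0.851).

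The probe had 2 spots on each array, which allowed its technical error to be read. The spots gave 34.5 and 33.7, 35.2 and 37.6, and 52.8 and 35 on the 3 ZnO NP arrays. On the ZnSO4 arrays they gave 52.7 and 16.9, 26.4 and 31.3, and 20.1 and 23.1, and on the control arrays 9.72 and 14.4, and 25.8 and 22.0. The spots of ZnSO4 replicate 1 thus differed by 1.65 on the log2 scale, more than the difference between any of the group means, while the median difference over the 8 arrays was 0.24. The brighter of them was close to the brightest ZnO NP spot. The ligand of this receptor, eda, was not above background on any array (probe A_15_P571592), so no ligand value could be set beside it.

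The study designed PCR primers for 2 of the members, edar and the B cell survival ligand tnfsf13b (BAFF), both on chromosome 9 in the RefSeq table of the assembly GRCz12tu. They are shown because they define what its own assay amplified of these genes, and the PCR values were not used here. Each primer is 20 bases long, written 5′ to 3′ in lower case, with no part singled out in capitals.
edar forward: cgcgtcatcagaaaacgagc
edar reverse: cttctgctgtgaatcccggt
tnfsf13b forward: atggcaggtgggtctaaagc
tnfsf13b reverse: attgccgaccacgttcttct

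The second receptor by fold change was tnfrsfa, a zebrafish TNF receptor superfamily gene listed with the synonym OTR. Its probe A_15_P140111 gave 30.8, 36.0 and 36.6 in ZnO NPs, 25.7, 25.6 and 20.4 in ZnSO4, and 22.7 and 26.1 in control. The ZnO NP arrays lay above all 5 others, whose values overlapped. It was above background on the 3 ZnO NP arrays, 1 ZnSO4 array and 1 control array. Against control, ZnO NPs had a log2 fold change of 0.50 (interval 0.19 to 0.81, unadjusted p = 0.0067, adjusted p = 0.114) and ZnSO4 one of -0.04 (interval -0.35 to 0.28). It was 0.07 in ZnO NPs with the normexp correction (adjusted p = 0.55).

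The gene tnfrsf21 encodes death receptor 6, a death-domain receptor studied mostly in neurons and lymphocytes of mammals. Both of its probes were above background on all 8 arrays. Probe A_15_P150341 gave 329, 305 and 307 in ZnO NPs, 224, 262 and 220 in ZnSO4, and 277 and 222 in control. Probe A_15_P730861 gave 164, 166 and 149 in ZnO NPs, 126, 140 and 121 in ZnSO4, and 127 and 125 in control.

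On both probes of tnfrsf21 the 3 ZnO NP arrays were brighter than all 5 others, and ZnSO4 and control overlapped. The log2 fold change in ZnO NPs against control was 0.34 on each probe, with an unadjusted p of 0.023 on A_15_P150341 (adjusted p = 0.15) and of 0.0048 on A_15_P730861 (adjusted p = 0.109). In ZnSO4 it was -0.08 and 0.04, with intervals of -0.36 to 0.20 and -0.17 to 0.24. Within side 1 the ZnO NP values were 0.35 and 0.39. On A_15_P150341 the value was 0.50 without control replicate 1 and 0.18 without control replicate 2 (adjusted p = 0.335), so its size also depended on the control array. With normexp the first probe gave 0.15 in ZnO NPs.

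For the other receptor probes no difference from control had an unadjusted p under 0.05. The main TNF receptor tnfrsf1a gave 1720, 1570 and 1760 in ZnO NPs, 1750, 1750 and 1940 in ZnSO4, and 1910 and 1730 in control on probe A_15_P106641, with log2 fold changes of -0.12 and -0.01 against control. Its dimmer probe A_15_P435205 gave 0.01 and -0.02. The 3 probes of tnfrsf19 (TROY) differed in sign, with 0.22, -0.07 and -0.13 in ZnO NPs and 0.21, -0.28 and -0.12 in ZnSO4. The T cell costimulatory receptor tnfrsf9a (4-1BB) had log2 fold changes of -0.12 in ZnO NPs and -0.22 in ZnSO4, and relt, a receptor first found in lymphoid tissue, -0.01 and -0.05. The smallest adjusted p in these 7 probes was 0.377.

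Among the ligands the lowest log2 fold changes were those of tnfb, 1 of the 2 zebrafish TNF genes. Its brighter probe A_15_P206556, above background on all 8 arrays, gave 173, 165 and 168 in ZnO NPs, 177, 191 and 261 in ZnSO4, and 273 and 228 in control. Its dimmer probe A_15_P627701 gave 29.6, 20.2 and 22.5 in ZnO NPs, 25.8, 26.0 and 29.4 in ZnSO4, and 37.2 and 40.6 in control. The ZnO NP arrays were below both control arrays on each probe, and the ZnSO4 arrays were below them on the dimmer probe only, since ZnSO4 replicate 3 lay between the control arrays on the brighter one.

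In ZnO NPs against control, the log2 fold change of tnfb was -0.57 on the brighter probe (SE 0.16, interval -0.95 to -0.18, unadjusted p = 0.0099, adjusted p = 0.122) and -0.71 on the dimmer one (SE 0.16, interval -1.08 to -0.34, unadjusted p = 0.0024, adjusted p = 0.105). In ZnSO4 against control it was -0.27 (adjusted p = 0.4) and -0.53 (unadjusted p = 0.012, adjusted p = 0.193). The ZnO NP values were -0.57 and -0.67 within side 1, and the ZnSO4 values -0.27 and -0.40 with the side as a block. With normexp the dimmer probe gave -0.32 in ZnO NPs and -0.25 in ZnSO4, while the brighter gave -0.54 and -0.27. The paralog tnfa was not above background on any array (probe A_15_P103303), so no tnfa value could be set beside these.

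The TRAIL-related ligands differed among themselves. tnfsf10l4 (probe A_15_P115998) gave 220, 203 and 196 in ZnO NPs, 232, 233 and 240 in ZnSO4, and 285 and 248 in control. Its groups did not overlap, which the choice of the described probes favours, with ZnO NPs lowest and control highest. Against control, ZnO NPs had a log2 fold change of -0.37 (interval -0.57 to -0.17, unadjusted p = 0.0032, adjusted p = 0.107) and ZnSO4 one of -0.18 (adjusted p = 0.317). Without control replicate 2, which left 1 control array, its log2 fold change in ZnO NPs was -0.47, still short of the fold of 1.5.

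tnfsf10l lay on the other side of 0. Its probe A_15_P206796 gave 1140, 1330 and 1180 in ZnO NPs, 1180, 1130 and 1090 in ZnSO4, and 1020 on each control array. Its probe A_15_P114750 gave 1820, 2090 and 1760 in ZnO NPs, 1820, 1800 and 1740 in ZnSO4, and 1540 and 1650 in control. Every exposed array was brighter than both controls on these 2 probes. The log2 fold changes were 0.25 and 0.24 in ZnO NPs (adjusted p = 0.146 and 0.162) and 0.15 and 0.16 in ZnSO4 (adjusted p = 0.382 and 0.362). Its probe A_15_P131121, above background on 4 arrays, gave 0.05 and 0.08.

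The gene tnfsf10 (TRAIL) had log2 fold changes of -0.25 and -0.18 on its 2 probes in ZnO NPs and of -0.19 and -0.11 in ZnSO4. On the first, A_15_P115347, the signals were 708, 635 and 608 in ZnO NPs, 712, 625 and 687 in ZnSO4, and 812 and 732 in control, and both exposed groups lay below both control arrays (ZnO NPs, unadjusted p = 0.037, adjusted p = 0.177). The related tnfsf10l3 gave -0.08 and -0.06. The Fas ligand faslg, which triggers death through the receptor Fas, had signals with log2 fold changes of -0.04 and -0.07. tnfsf12 (TWEAK) gave -0.09 and 0.10 on its 2 probes in ZnO NPs and -0.05 and 0.18 in ZnSO4. In whole larvae, fewer cells of a type and less RNA per cell cannot be told apart for any of these genes.

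**Figure D3:**
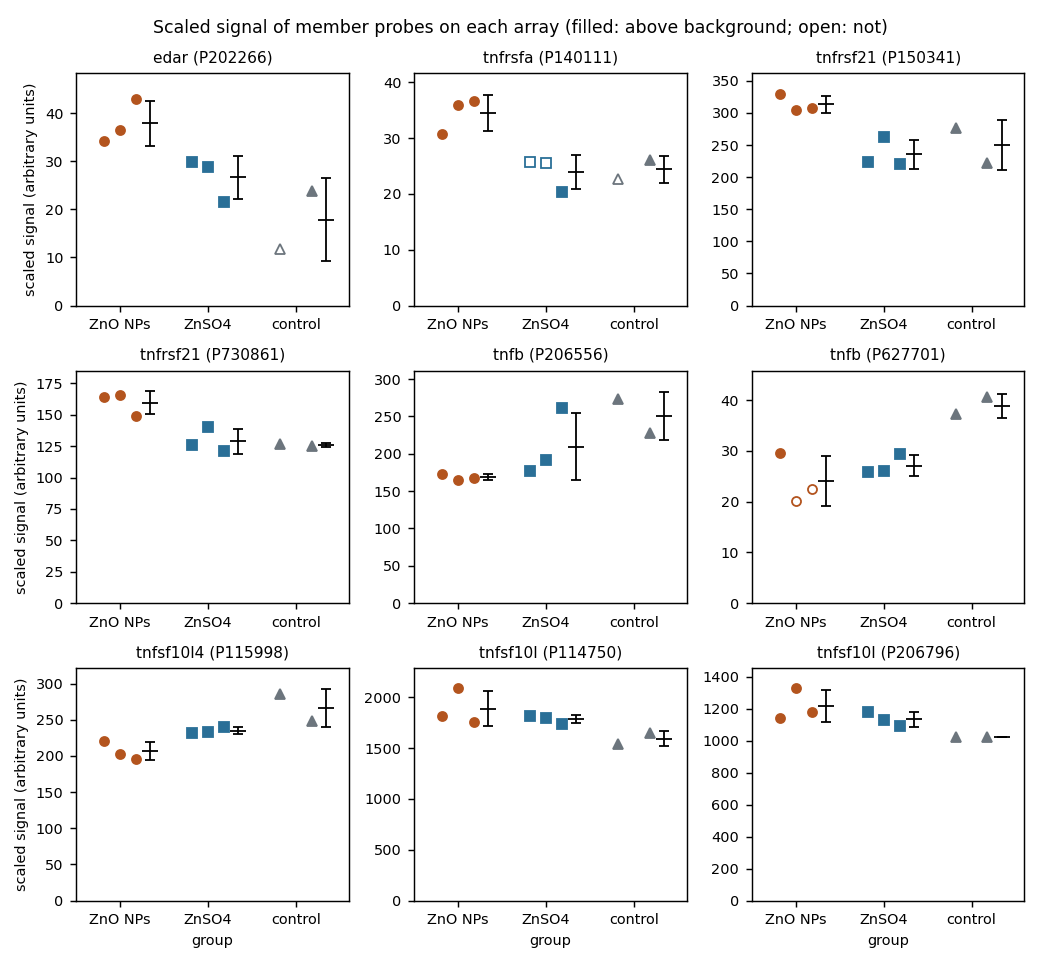
Scaled signal (arbitrary units, axes from 0) of 9 member probes on each array, ZnO NPs as circles, ZnSO4 as squares and control as triangles, filled where the probe was above background, with the group mean and SD as a black bar to the right. The ZnO NP arrays lie above all others for edar, tnfrsfa and both tnfrsf21 probes, and below both control arrays for both tnfb probes and tnfsf10l4.

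Next, the exposures were compared with each other, which asks whether members respond to the particles differently from the soluble salt. No member was called by limma in ZnO NPs against ZnSO4, and limma called none of the 34610 probes (0%). None passed the fold of 1.5 with an unadjusted p under 0.05, beside 0.584% of all probes. At any fold, 4 of 23 members had an unadjusted p under 0.05 (17.4%), beside 5.65% of all probes, and all 4 had an adjusted p of 0.812. Of these 3 were upwards, beside 3.89% of all probes, and 1 downwards, beside 1.76%. Among the 19 members above background on all arrays, 3 did (15.8%), beside 5.2%. The median was 0.01 for the members and 0.01 for all probes, with 12 of 23 members above 0 (52.2%), beside 54.3%. It was 0.10 for receptor probes and -0.05 for ligand probes.

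The 3 upward probes were those of tnfrsfa and tnfrsf21. For tnfrsfa the filter favoured a difference, since it entered the test through ZnO NPs alone. The log2 fold change of ZnO NPs over ZnSO4 was 0.53 for tnfrsfa (interval 0.25 to 0.81, unadjusted p = 0.0025), 0.42 for tnfrsf21 on A_15_P150341 (interval 0.17 to 0.67, unadjusted p = 0.0051) and 0.31 on A_15_P730861 (interval 0.13 to 0.49, unadjusted p = 0.0048). The fourth was the ligand tnfsf10l4 at -0.19 (interval -0.37 to -0.01, unadjusted p = 0.041). Within side 2, where ZnO NP replicate 3 stood alone against the 3 ZnSO4 arrays, the values were 0.63, 0.39, 0.21 and -0.26. With normexp tnfrsfa gave 0.11.

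edar was 0.51 higher in ZnO NPs than in ZnSO4, with an interval of -0.09 to 1.11 that includes 0 (unadjusted p = 0.085, adjusted p = 0.812), although the 3 arrays of each group did not overlap. The brighter tnfb probe gave -0.29 (interval -0.64 to 0.05) and the dimmer one -0.18 (interval -0.51 to 0.15). For tnfsf10l, the intervals of -0.08 to 0.28 and -0.11 to 0.26 leave room for differences of either sign.

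**Figure D4:**
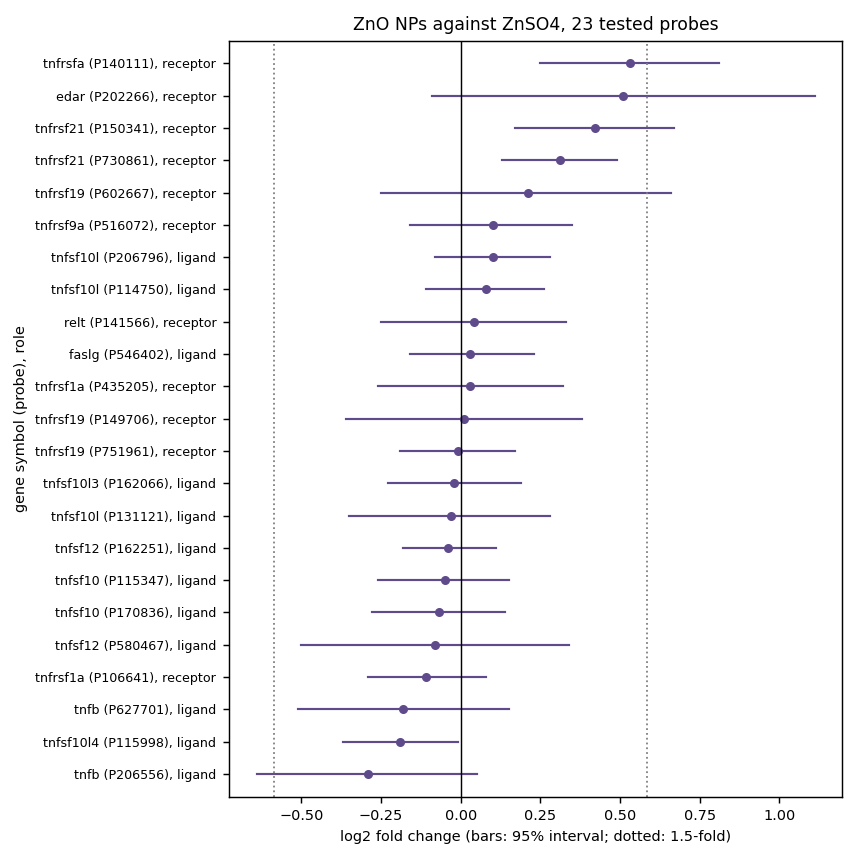
Log2 fold change of ZnO NPs over ZnSO4 (points) with its 95% interval (bars) for the 23 tested member probes, ordered by value, with dotted lines at a fold of 1.5. tnfrsfa at 0.53, edar at 0.51 and the tnfrsf21 probes at 0.42 and 0.31 stand at the top, tnfb at -0.29 at the bottom, and only the bars of tnfrsfa, both tnfrsf21 probes and tnfsf10l4 exclude 0.

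The other 12 member probes were too dim to be tested, among them every probe of tnfsf13b, cd40lg and tnfsf18. tnfsf13b, which keeps B cells alive through its receptors, had 2 probes of 1 spot each. Probe A_15_P156146 gave 18.9, 33.6 and 9.19 in ZnO NPs, 11.4, 21.0 and 15.0 in ZnSO4, and 5.46 and 10.6 in control, and was above background on ZnO NP replicates 1 and 2 only. Means of log2 signals corresponded to 18 in ZnO NPs, 15.3 in ZnSO4 and 7.6 in control. They include arrays on which the probe was not above background, so no fold change is given. ZnO NP replicate 3 lay below all 3 ZnSO4 arrays and below control replicate 2, so the groups overlapped.

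Probe A_15_P102554 of tnfsf13b gave another order. It read 9.79, 10.7 and 5.83 in ZnO NPs, 5.4, 52.4 and 9.77 in ZnSO4, and 7.78 and 11.4 in control, and was above background on ZnSO4 replicate 2 only. The ZnSO4 readings of 5.4 and 9.77 were not above background, so no fold change is given. The readings above background thus lay in different exposures on the 2 probes of the gene, each on 1 spot.

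The CD40 ligand cd40lg, a T cell signal to B cells, was above background on ZnO NP replicate 1 only, with 24.4, against 4.74 and 5.67 on the other ZnO NP arrays, 4.99, 4.61 and 4.6 in ZnSO4, and 4.73 and 2.89 in control. That reading is 1 spot, so no fold change is given. Its receptor cd40 was not above background on any array. tnfsf18 was above it on none either, with 18.4 on ZnSO4 replicate 1 and 2.53 to 5.62 on the others.

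The TNF receptor tnfrsf1b had no probe above background throughout a group. Probe A_15_P738191 read 188 on ZnSO4 replicate 1, on its 1 spot, and 6.34 to 21.6 on the other arrays. The same array had the unequal edar spots and the bright tnfsf18 reading. Lone bright readings also lay on other arrays, with tnfsf13b at 52.4 on ZnSO4 replicate 2 and cd40lg at 24.4 on ZnO NP replicate 1. Probe A_15_P150116 gave 23.2, 25.2 and 24.9 in ZnO NPs, 25.7, 14.1 and 24.0 in ZnSO4, and 13.4 and 19.5 in control, and was above background on 5 arrays.

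**Figure D5:**
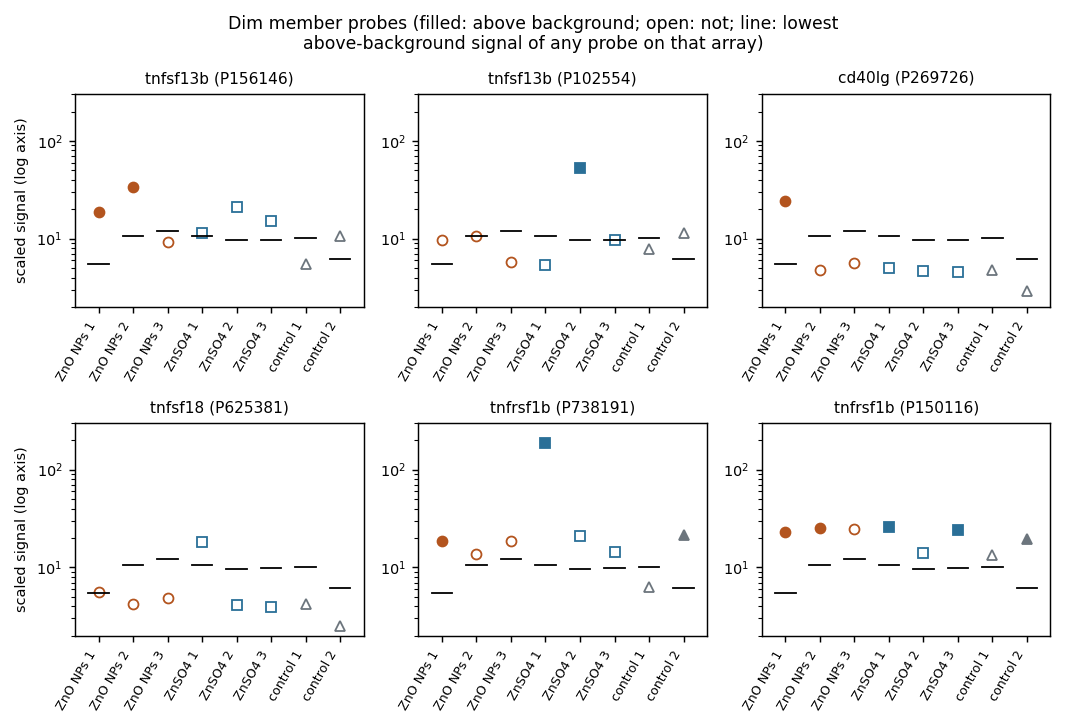
Scaled signal (log axis) of 6 dim member probes on each array, filled where above background, with a line at the lowest signal that any probe above background had on that array. Single filled points stand apart from the rest of their panel for cd40lg (24.4, ZnO NP replicate 1), tnfsf13b (52.4, ZnSO4 replicate 2) and tnfrsf1b (188, ZnSO4 replicate 1).

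Downstream of the receptors, a list of 49 adaptors, caspases, kinases and NF-kB proteins had probes for 33 genes, and 61 of its 68 probes were tested. None was called in any comparison and none passed the fold of 1.5 with an unadjusted p under 0.05. At any fold 8 probes passed the unadjusted p upwards and 0 downwards in ZnO NPs against control, 5 upwards and 0 downwards in ZnSO4 against control, and 2 upwards and 0 downwards in ZnO NPs against ZnSO4. The upward shares were 13.1%, 8.2% and 3.28% of the list, each below the 15.2%, 9.35% and 3.89% of all probes. The downward counts of 0 stand beside 9.89%, 8.97% and 1.76% of all probes. The list's median log2 fold change was 0.07 in ZnO NPs and 0.05 in ZnSO4, beside 0.03 and 0.02 over all probes.

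By unadjusted p, the leading probes of this list in ZnO NPs were 2 of the NF-kB subunit gene rel and 1 of the executioner caspase casp3b. The rel probe A_15_P150281 gave 3990, 3680 and 3590 in ZnO NPs, 3660, 3440 and 3480 in ZnSO4, and 3250 and 2630 in control, and had log2 fold changes of 0.36 (adjusted p = 0.12) and 0.27 (adjusted p = 0.24). The other rel probe gave 0.31 (adjusted p = 0.122) and 0.22. The casp3b probe A_15_P160764 gave 32.9, 34.3 and 35.2 in ZnO NPs, 31.2, 36.2 and 41.2 in ZnSO4, and 26.2 and 26.8 in control, with 0.37 (adjusted p = 0.129) and 0.44 (adjusted p = 0.172).

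In ZnSO4 the leading probes were those of traf6, the ubiquitin ligase on the way to NF-kB, casp3b and tnip1, a partner of the NF-kB inhibitor A20. traf6 gave 76.3, 80.1 and 79.6 in ZnO NPs, 85.6, 85.2 and 87.6 in ZnSO4, and 73.8 and 63.1 in control, with log2 fold changes of 0.20 in ZnO NPs and 0.34 in ZnSO4 (adjusted p = 0.165). tnip1 had 0.24 and 0.22 (adjusted p = 0.226). On these 5 probes every exposed array was brighter than both controls, which their choice by the smallest p against control favours. The NF-kB inhibitors nfkbiaa and nfkbiab, which NF-kB itself induces, had 6 probes with log2 fold changes between -0.19 and -0.07 in ZnO NPs. In ZnSO4 these lay between -0.22 and -0.03. The inhibitor gene nfkbib of the same list had 0.10 and -0.07 in ZnO NPs and 0 and -0.07 in ZnSO4. None of these inhibitor probes had an unadjusted p under 0.05 against control. Caspase-8 (casp8) gave 0.02 and -0.01 in ZnO NPs and 0.23 and 0.20 in ZnSO4.

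Markers of immune cells, which express many of the members, varied with the groups, with none past an adjusted p of 0.05 in the limma fit. Neutrophil markers had a median log2 fold change of 0.19 in ZnO NPs and 0.78 in ZnSO4 over 9 tested probes, and the summed signal of their 13 probes was 6900 to 9990 in ZnO NPs, 9880 to 11400 in ZnSO4 and 6260 to 8020 in control. Of these 13 probes 2 were not above background on any array. The smallest p of this list against control, in both exposures, was that of the myeloperoxidase gene mpx on probe A_15_P132151. It gave 52.7, 45.4 and 54.4 in ZnO NPs, 60.5, 68.9 and 85.5 in ZnSO4, and 30.7 and 28.6 in control, with adjusted p of 0.0981 and 0.0692. Its log2 fold change in ZnO NPs was 0.77, beside 0.34 and 0.47 on other mpx probes and 0.98 for mmp9. There lyz gave 0.09, ncf1 -0.03, and npsn 0.19, -0.06 and 0.02. In ZnO NPs against ZnSO4 7 of the 9 probes (77.8%) had an unadjusted p under 0.05, all lower in ZnO NPs, beside 1.76% of all probes. Macrophage markers (9 probes, all above background on all 8 arrays) had medians of 0.14 and 0.20, with sums of 5230 to 6230 in ZnO NPs, 5550 to 7370 in ZnSO4 and 5370 to 6880 in control. In ZnSO4 against control 4 of the 9 had an unadjusted p under 0.05 (44.4%), all upwards, beside 9.35% of all probes. These were both probes of spi1b (0.42 and 0.29) and both of mpeg1.1 (0.34 on each). In ZnO NPs against control 1 did, upwards (11.1%, spi1b), beside 15.2%. Of 14 lymphocyte marker probes 3 could be tested, 1 each of lck, zap70 and cd4-1. Against control they had log2 fold changes of -0.18 to -0.11 in ZnO NPs and -0.39 to -0.04 in ZnSO4. Of the 14 probes 4 were not above background on any array, those of rag1 and cd8a and 1 of cd4-1. rag2 was above it on 3 arrays, and each ikzf1 probe on 2. Lymphocyte sums were 220 to 244 in ZnO NPs, 233 to 406 in ZnSO4 and 241 to 278 in control. The 406 was on ZnSO4 replicate 2, where an lck probe read 101 and a zap70 probe 43.1, against at most 4.98 and 5.11 on other arrays. The part of these cells in the values of the members was not tested.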

How the data were processed

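Total RNA of whole larvae was hybridised to 1-color Agilent arrays. The authors deposited Feature Extraction output (10.10 per the labels), with intensity per spot as the processed signal, from which per the file headers background and a spatial trend had been removed, and marks for outliers, saturation and signals well above background. The authors also deposited a table of log2 values. These matched log2 processed signals, shifted by the 75th percentile and centred on each probe's median, in 99.93% to 99.94% of values within 0.011.

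Outlier spots were left out, spots of a probe were averaged as log2 and the array's 75th percentile was subtracted. limma 3.58.1 in R 4.3.3 fitted all 8 arrays together (5 residual and 2.43 prior degrees of freedom), and its code was tested on simulated data. Probes with a missing value (34617 kept, 34610 tested) were left out. For untested probes the means given are those of log2 signals, and no fold change is given. The array number limits precision.

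Probes were named through RefSeq accessions (assembly GRCz12tu, 25854 probes). Coordinates were not used, because that is not the build of the array's grid. Named with values are member probes past a threshold, the 3 highest and lowest non-overlapping per comparison, those of edar, tnfsf13b, cd40lg and tnfsf18, and their partners, and for the signalling list the 3 smallest p. From that list nfkbiaa, nfkbiab, nfkbib and casp8 are given outside this rule. Members and lists were chosen with earlier results of these data known. The replicate numbers did not pair the samples. Alternatives changed scaling, background correction, filter, test, fold, blocks and arrays.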

Additional observations from a re-analysis of the deposited data

Results flagged for a closer look

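The difference between the exposures was tested for the 23 member probes in the limma fit of ZnO NPs against ZnSO4, and 4 probes had an unadjusted p under 0.05, none of them after adjustment (adjusted p = 0.812 for each). The log2 fold changes were 0.53 for tnfrsfa, 0.42 and 0.31 for the 2 probes of tnfrsf21 and -0.19 for tnfsf10l4. tnfrsfa had entered the test through ZnO NPs alone, the group in which it was bright, so the filter favoured its difference. All 3 ZnO NP arrays lay on 1 side of all 3 ZnSO4 arrays on each of these probes. The probes were picked by their p in this comparison, so this adds no support.

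Among members too dim for the comparisons, a signal was above background in exposed larvae and in neither control array on 3 probes. tnfsf13b read 18.9 and 33.6 on ZnO NP replicates 1 and 2 with A_15_P156146, and 52.4 on ZnSO4 replicate 2 with A_15_P102554. cd40lg read 24.4 on ZnO NP replicate 1. Each of these readings is 1 spot.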

How the results depend on the processing

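Counts of members past a fold of 1.5 and an unadjusted p under 0.05 depended on the setting. In ZnO NPs against control the count was 2, beside 1061 of all probes. It was 0 with normexp and quantile normalization (261 of all probes) and 0 among probes above background on all 8 arrays (772). It was 1 under one-way ANOVA with LSD (507 of all probes), under one-way ANOVA with Tukey (460) and at a fold of at least 2 (194). Leaving out 1 array at a time gave 2 to 4, with 4 without control replicate 2, and the adjusted count was 0 to 1, edar passing without control replicate 2. Without that array edar rose from a log2 fold change of 1.16 to 1.67 in ZnO NPs and from 0.65 to 1.16 in ZnSO4. The rise was thus not particular to the particles. After adjustment neither ANOVA called a member in any comparison. In ZnSO4 against control the count was 0, beside 2.4% of all probes, and it was 1 with quantile normalization and 1 with median scaling (tnfb). For this pair no count is given for the fits that left 1 control array. In ZnO NPs against ZnSO4 it was 0, beside 0.584% of all probes, and it was 1 with a block for side and 0 to 1 with arrays left out. With that block the probe was tnfrsfa, whose difference the filter favoured. No count of all probes stands beside these counts of 1 in ZnSO4 against control and between the exposures. They are not read as results about the members. Side 2 alone holds 1 ZnO NP array, so no count is given for it. The setting for each side alone was chosen after seeing the data. A fit with 1 control array takes its spread from the exposed groups.

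Over all 23 tested probes, 1394 of 1483 values kept their sign. For the 9 probes that the naming rule chose, 569 values kept their direction and call, 2 changed call (edar, with 1 control array left) and 5 turned sign. These were tnfrsf21 on A_15_P150341 in ZnSO4 against control (0.08 without control replicate 1, and -0.24 to 0.08 over all arrays left out), tnfrsfa there (0.06 without control replicate 2 and 0.07 without ZnSO4 replicate 3, and -0.13 to 0.07 over all) and tnfsf10l on A_15_P114750 in ZnO NPs against ZnSO4 (-0.02 with the side as a block and -0.02 on side 2 alone). The cause was not tested.

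The replicate numbers share only a name, since deviations of arrays with the same number correlated between -0.07 and 0.15. With a replicate block the adjusted count stayed at 0 in each comparison. The unadjusted count was 3 in ZnO NPs against control, beside 1276 of all probes, and 0 in the others. Signal over background limits the 12 untested probes and the tested probes that were below background on some arrays, which were those of edar, tnfrsfa, the dimmer tnfb probe and tnfsf10l on A_15_P131121.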
